A study of Mus musculus with 18 samples.

Results

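Immediate early genes are switched on within minutes when a cell meets a growth factor, a stress or the enzymes that take a tissue apart, and they need no newly made protein for it. Their messages are short lived, and their products are mostly transcription factors, or proteins that end the response again. The set described here has 10 such genes, known members of this response that were chosen with earlier results of these data known. They are Jun, Junb, Fos and Fosb of the AP-1 factor, Egr1 and Atf3, the growth regulators Btg2 and Ier2, and Zfp36 and Dusp1, which limit the response. A gene was measured by the probe set that carries its symbol and no other. That held for 9 of the 10 genes, each with 1 such probe set, among 30142 genes measured in the same way. The only probe set of Junb also carries the symbol of Prdx2, so Junb has no value of its own below.

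The cells came from mice 8 to 12 weeks old that carry the TCF/Lef:H2B/GFP transgene, in which binding sites for the factors of Wnt/beta-catenin signalling drive a green fluorescent histone. Each array holds cells pooled from 3 to 4 animals, taken from lungs with trachea and bronchi, digested with dispase for 45 min, depleted of CD31 and CD45 positive cells and sorted as DAPI negative, EpCAM positive cells. The sort separated bright cells (Wnthigh), dim cells (Wntlow) and cells without fluorescence (Wntnegative), with 6 arrays of each, numbered by experiment. All 3 groups carried the reporter and went through the same digestion, an undissociated lung was not analysed here, and a stable fluorescent histone reads past as well as present activity of the reporter.

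Values are log2 values on the scale the authors deposited. They reach 19.93, past the 16 that a 16-bit scanner can give on this scale, so differences are not given as ratios of RNA. The arrays fell into 2 runs of 9, experiments 2 to 5 with medians over genes of 4.62 to 4.77 and experiments 7 to 9 with medians of 3.55 to 3.69, and each run held 3 arrays of each group. Values are given in the order of the experiments, 2, 4 and 5 for Wnthigh and 3, 4 and 5 for Wntlow and Wntnegative cells in the earlier run, and 7, 8 and 9 for every group in the later one. Groups were therefore compared within runs. In each run the 3 arrays of a group correlated at 0.977 or above, lowest among the Wntlow arrays of experiments 2 to 5.

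Of the 9 genes measured, 8 had lower values in Wnthigh than in Wntnegative cells, with differences of −0.99 to −2.95 log2 units, and Egr1 did not pass the test. Against Wntlow cells, 7 of the 9 were lower in Wnthigh cells, beside 16.4% of all genes. That count rested on the later run, and 0 of the 9 passed in experiments 2 to 5 alone. None of the 9 passed the test between Wntlow and Wntnegative cells, where 13.2% of all genes were lower and 12.3% higher. Tests were made with limma on all 30142 genes with the run as a term and Benjamini-Hochberg adjusted p-values, with a threshold of 0.05. By that threshold 24.6% of all genes were lower and 15.7% higher in Wnthigh than in Wntnegative cells. All genes include dim ones. With only genes brighter than the median gene tested, 6133 were lower, beside 7424 over all 30142. The 6133 come from far fewer genes tested, so they are a larger share than 24.6%. The shares of all genes past this test are therefore smaller than those among brighter genes, and most of the 9 are bright. The median difference of the 9 genes was −1.04 log2 units, beside −0.05 for all genes. The 3 comparisons share arrays, so their values stand side by side and are not independent of each other.

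Promoter sequence was read for 8 of the 10 genes, from RefSeq on build GRCm38.p6, in windows of 250 bases before to 50 after the start, and both strands were searched. The CRE, TGACGTCA, which CREB and ATF factors bind, was found in 2 of the 8 (Btg2 and Dusp1) and in 1.79% of 32851 windows of the same length. Its shorter core TGACG, which overlaps the full site and was added after the windows had been read, was found in 6 of the 8 (Atf3, Btg2, Dusp1, Fos, Fosb and Junb) and in 20.8% of all windows. The CArG box, the element that SRF binds, was found in 1 of the 8 (Zfp36) and in 1.63% of all windows, the AP-1 site TGACTCA in 0 of the 8 and in 5.2%, and the TATA box TATAAA in 2 of the 8 (Fos and Junb) and in 13.6%. These are matches of letters only. The 250 bases before the start are printed for the genes with a full CRE or a CArG box, for Fos with 2 cores and a TATA box, and for Fosb, the gene with the largest difference, with matches in capitals:
Btg2, chr1:134079156-134079405, minus strand: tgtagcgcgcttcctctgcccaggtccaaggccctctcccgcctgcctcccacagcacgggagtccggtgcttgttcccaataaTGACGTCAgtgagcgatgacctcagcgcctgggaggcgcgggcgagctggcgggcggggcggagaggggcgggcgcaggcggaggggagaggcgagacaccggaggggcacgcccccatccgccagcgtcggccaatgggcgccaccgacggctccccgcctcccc
Dusp1, chr17:26508473-26508722, minus strand: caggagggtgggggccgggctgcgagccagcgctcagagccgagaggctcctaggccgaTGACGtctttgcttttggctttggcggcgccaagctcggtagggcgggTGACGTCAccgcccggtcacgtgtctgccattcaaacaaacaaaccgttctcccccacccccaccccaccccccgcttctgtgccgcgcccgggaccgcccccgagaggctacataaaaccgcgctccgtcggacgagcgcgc
Zfp36, chr7:28379229-28379478, minus strand: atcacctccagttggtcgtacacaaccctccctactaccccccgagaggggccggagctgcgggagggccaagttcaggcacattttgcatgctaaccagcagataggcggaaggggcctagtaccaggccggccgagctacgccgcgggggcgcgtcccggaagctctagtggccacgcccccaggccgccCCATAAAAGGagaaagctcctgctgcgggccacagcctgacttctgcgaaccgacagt
Fos, chr12:85473640-85473889, plus strand: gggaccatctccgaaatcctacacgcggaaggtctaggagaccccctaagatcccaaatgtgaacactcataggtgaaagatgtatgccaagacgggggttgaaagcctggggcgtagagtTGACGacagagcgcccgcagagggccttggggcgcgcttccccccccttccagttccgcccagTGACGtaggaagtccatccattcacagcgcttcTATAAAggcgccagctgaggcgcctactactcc
Fosb, chr7:19310046-19310295, minus strand: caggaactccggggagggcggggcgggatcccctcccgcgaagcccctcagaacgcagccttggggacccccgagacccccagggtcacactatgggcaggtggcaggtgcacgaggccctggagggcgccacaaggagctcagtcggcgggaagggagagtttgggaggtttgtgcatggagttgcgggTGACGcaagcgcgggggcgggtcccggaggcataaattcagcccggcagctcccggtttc

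The matches lie at −166 to −159 in Btg2 and −143 to −136 in Dusp1 (CRE), at −58 to −49 in Zfp36 (CArG box), at −33 to −28 in Fos (TATA box) and at −60 to −56 in Fosb (core), counted from the start. The start used for Fosb lies inside the annotated gene, which reaches 19310118 on the minus strand. The last bases printed for Fosb, with its core, are therefore part of the gene. Dusp1 has a further core at −191 and Fos has cores at −129 and −66.

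The subunits of AP-1 come first. Jun, Fos and Fosb are basic leucine zipper proteins that bind DNA as pairs. Jun can pair with itself, whereas Fos and Fosb need a partner such as Jun. In experiments 2 to 5, Fosb was at 14.13, 15.93 and 15.26 in Wnthigh cells, 14.77, 16.82 and 16.48 in Wntlow cells and 16.85, 17.06 and 16.99 in Wntnegative cells. On the arrays of experiments 7 to 9 its values were 12.33, 10.91 and 11.63 in Wnthigh cells, 15.91, 14.90 and 15.19 in Wntlow cells and 14.68, 16.15 and 16.14 in Wntnegative cells. Wnthigh and Wntnegative arrays did not overlap in either run, and in the later run the Wnthigh arrays also lay below all Wntlow arrays. Fosb was lower in Wnthigh than in Wntnegative cells (difference −2.95 log2 units, SE 0.538, limma adjusted p = 0.000276), the largest difference among the 9 genes. It was lower in 5 of 5 experiments that held both groups, with differences of −1.13 in experiment 4 to −5.24 in experiment 8. Against Wntlow cells the difference was −2.31 (SE 0.538, limma adjusted p = 0.00329).

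Jun showed the same layout with smaller differences. Its values in experiments 2 to 5 were 14.67, 16.20 and 15.53 in Wnthigh cells, 15.78, 16.69 and 16.41 in Wntlow cells and 16.84, 16.93 and 16.68 in Wntnegative cells. In experiments 7 to 9 it was at 13.11, 12.83 and 13.71 in Wnthigh cells, 15.65, 15.67 and 15.64 in Wntlow cells and 15.53, 16.14 and 16.27 in Wntnegative cells. The Wnthigh arrays were the lowest of each run but for 1, that of experiment 4, which lay above the Wntlow array of experiment 3. Jun was lower in Wnthigh than in Wntnegative cells (difference −2.06, SE 0.317, limma adjusted p = 5.34e-05) and lower than in Wntlow cells (difference −1.63, SE 0.317, limma adjusted p = 0.000769). Between Wntlow and Wntnegative cells the difference was −0.42, with a 95% interval of −1.10 to 0.25.

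Fos differed less. It was at 13.35, 14.31 and 13.93 in Wnthigh cells, 13.70, 14.54 and 14.32 in Wntlow cells and 14.37, 14.68 and 14.39 in Wntnegative cells of experiments 2 to 5. All Wnthigh arrays of that run lay below the Wntnegative arrays, that of experiment 4 only just. In experiments 7 to 9 Fos had 12.00, 12.04 and 11.92 in Wnthigh cells, 13.81, 12.84 and 12.84 in Wntlow cells and 12.74, 13.45 and 13.99 in Wntnegative cells, with all Wnthigh arrays below all others. The difference of Wnthigh from Wntnegative cells was −1.01 (SE 0.255, limma adjusted p = 0.00407). That from Wntlow cells was −0.75 (SE 0.255, limma adjusted p = 0.0371), and it did not pass with the experiment as a replicate block (adjusted p = 0.0631, over all settings tried 0.0135 to 0.906).

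**Figure D1:**
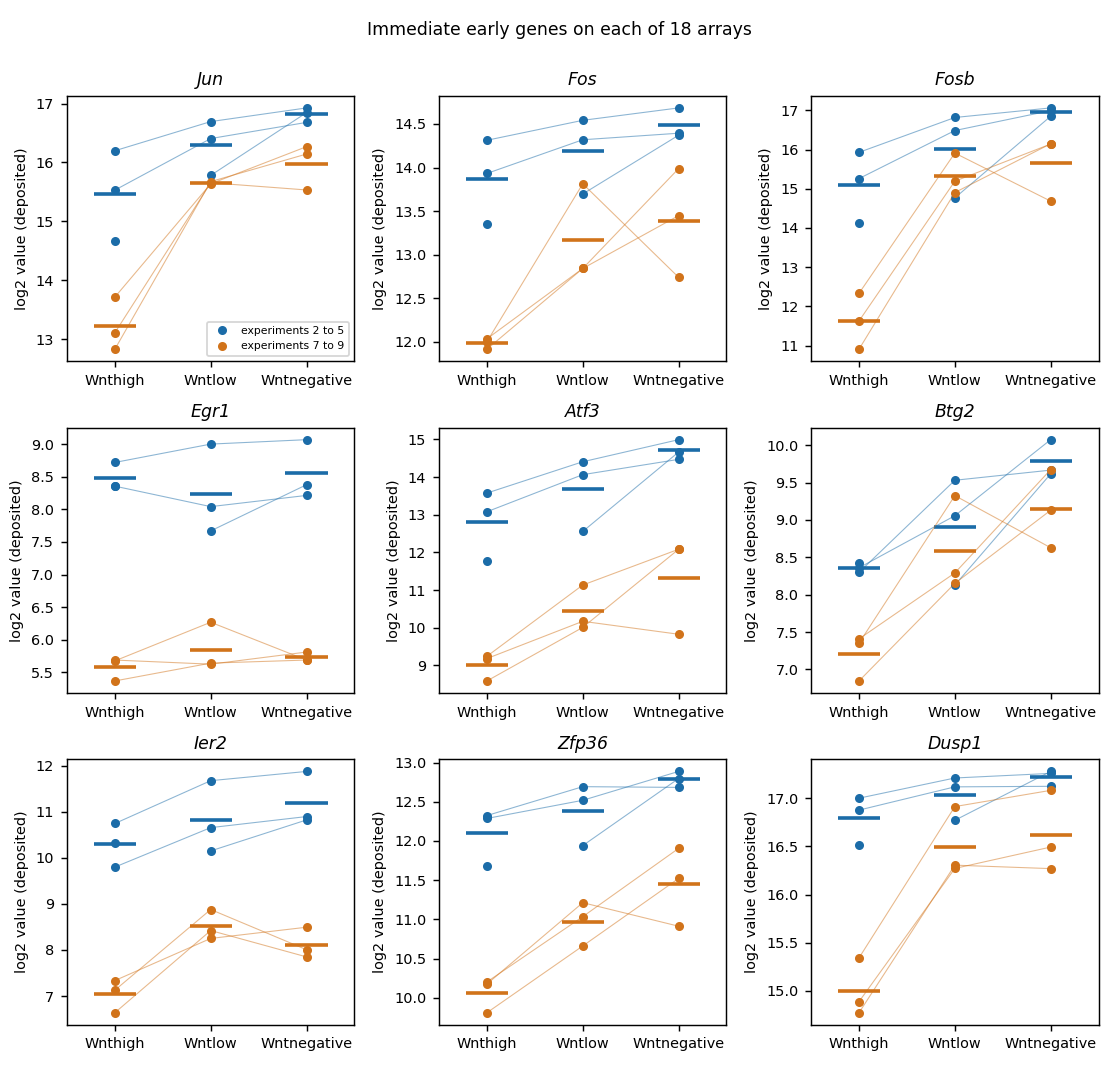
Log2 values (deposited scale) of the 9 measured genes on 18 arrays, in Wnthigh, Wntlow and Wntnegative cells from left to right, with experiments 2 to 5 in blue and experiments 7 to 9 in orange. Points are arrays, thick bars are means of 3 arrays and thin lines join arrays of 1 experiment. For 8 genes the Wnthigh points of a run lie below all Wntnegative points of that run, and those of Egr1 do not.

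Atf3, a basic leucine zipper factor of the ATF/CREB family that many kinds of stress induce, had 11.76, 13.08 and 13.58 in Wnthigh cells, 12.56, 14.07 and 14.41 in Wntlow cells and 14.67, 14.47 and 14.995 in Wntnegative cells of experiments 2 to 5. Its values in experiments 7 to 9 were 9.18, 8.59 and 9.24 in Wnthigh cells, 10.17, 10.01 and 11.13 in Wntlow cells and 9.83, 12.08 and 12.08 in Wntnegative cells. The Wnthigh arrays again lay below the Wntnegative arrays of their run, and the Wntnegative array of experiment 7 lay more than 2 log2 units below the others of its group. Atf3 was lower in Wnthigh than in Wntnegative cells (difference −2.12, SE 0.427, limma adjusted p = 0.000681). The difference between Wnthigh and Wntlow cells was −1.15 (95% interval −2.06 to −0.25), with a limma adjusted p of 0.0562. It passed the test when the Wntlow array of experiment 3 was left out, with a difference of −1.42.

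Egr1, a zinc finger factor induced by serum and by many growth factors, stood apart from the other 8. In experiments 2 to 5 it was at 8.35, 8.72 and 8.35 in Wnthigh cells, 7.67, 9.00 and 8.04 in Wntlow cells and 8.38, 9.07 and 8.21 in Wntnegative cells. In experiments 7 to 9 it was at 5.68, 5.37 and 5.69 in Wnthigh cells, 6.27, 5.64 and 5.63 in Wntlow cells and 5.69, 5.69 and 5.81 in Wntnegative cells. The 3 groups overlapped in the earlier run. In the later run Wntlow arrays overlapped the others, and Wnthigh and Wntnegative arrays met only at 1 value, 5.69. All values of the later run but the 6.27 of 1 Wntlow array were close to its background level of 4.96, the 95th percentile of 23 background control probe sets. Its difference was −0.11 between Wnthigh and Wntnegative cells (95% interval −0.56 to 0.33, limma adjusted p = 0.702), −0.01 between Wnthigh and Wntlow cells (95% interval −0.46 to 0.43) and −0.10 between Wntlow and Wntnegative cells (95% interval −0.54 to 0.34). These p-values do not show that the groups are alike, and on the later run's arrays a value so near background could not have fallen far.

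The spread of Egr1 lay more between experiments than between groups. Over the 15 arrays of the 5 experiments that held all 3 groups, the group took 9.17% of the sum of squares within runs and the experiment 68.8%. That share rests mostly on experiments 4 and 5 of the earlier run, with 8.72, 9.00 and 9.07 in experiment 4 and 8.35, 8.04 and 8.21 in experiment 5 (Wnthigh, Wntlow and Wntnegative). In the other 8 genes the group took 68.6% (Atf3) to 93.5% (Jun). Ier2 had the next highest share for the experiment, 24.5%. In experiments 2 to 5 the array of experiment 4 was the highest of each group for Egr1 and Ier2, and likewise for Jun, Fos and Fosb.

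**Figure D2:**
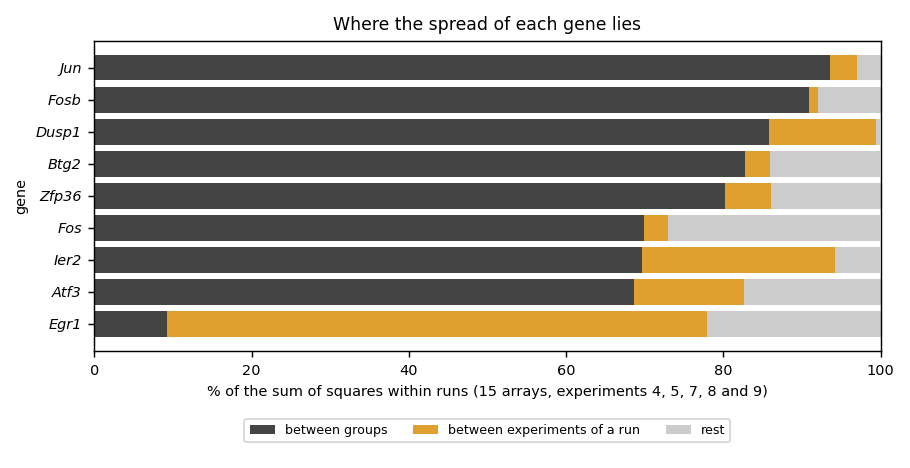
Percent of the sum of squares within runs that lies between groups (dark), between experiments of a run (yellow) and in the rest (grey), for 9 genes on the 15 arrays of experiments 4, 5, 7, 8 and 9. Egr1 has 9.17% between groups and 68.8% between experiments, and the other 8 genes have at least 68.6% between groups.

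Btg2, which slows cell proliferation and helps to shorten the tails of messages, had 8.42, 8.30 and 8.36 in Wnthigh cells, 8.13, 9.53 and 9.06 in Wntlow cells and 9.62, 9.67 and 10.07 in Wntnegative cells of experiments 2 to 5. It had 7.35, 6.85 and 7.41 in Wnthigh cells, 9.33, 8.15 and 8.29 in Wntlow cells and 8.63, 9.13 and 9.67 in Wntnegative cells of experiments 7 to 9. The gap between Wnthigh and Wntnegative arrays was at least 1 log2 unit in both runs. Btg2 was lower in Wnthigh than in Wntnegative cells (difference −1.68, SE 0.264, limma adjusted p = 6.47e-05) and lower than in Wntlow cells (difference −0.97, SE 0.264, limma adjusted p = 0.0105). With the 95% interval at −1.28 to −0.16, its difference of −0.72 between Wntlow and Wntnegative cells came closest to the threshold in that comparison (limma adjusted p = 0.0587, 0.0107 to 0.607 over all settings tried), and it passed without experiment 7, at −1.0.

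Ier2, a nuclear protein of the immediate early class, was at 10.33, 10.74 and 9.80 in Wnthigh cells, 10.15, 11.67 and 10.65 in Wntlow cells and 10.82, 11.87 and 10.89 in Wntnegative cells of experiments 2 to 5. In experiments 7 to 9 it was at 6.64, 7.13 and 7.34 in Wnthigh cells, 8.42, 8.88 and 8.25 in Wntlow cells and 7.85, 8.01 and 8.49 in Wntnegative cells. Here the Wntlow and Wntnegative arrays were mixed. The Wnthigh arrays lay below both in the later run, whereas in the earlier run they lay below the Wntnegative arrays and overlapped the Wntlow arrays of experiments 3 and 5. Ier2 was lower in Wnthigh cells than in Wntnegative cells (difference −0.99, SE 0.286, limma adjusted p = 0.0101) and than in Wntlow cells (difference −1.01, SE 0.286, limma adjusted p = 0.0132). The paired differences from Wntnegative cells ran from −0.88 to −1.21, the narrowest range of the 8 genes that passed. Without experiment 7 or without experiment 8 the difference from Wntlow cells no longer passed, at −0.85 and −0.86.

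Zfp36 and Dusp1 limit the response. The protein of Zfp36, tristetraprolin, binds AU-rich elements in the tails of inflammatory messages and hastens their decay, and Dusp1 is a phosphatase that switches off the kinases p38, JNK and ERK. Zfp36 had 11.68, 12.32 and 12.29 in Wnthigh cells, 11.94, 12.69 and 12.52 in Wntlow cells and 12.80, 12.68 and 12.89 in Wntnegative cells of experiments 2 to 5. Its values in experiments 7 to 9 were 10.18, 9.81 and 10.20 in Wnthigh cells, 11.21, 10.66 and 11.03 in Wntlow cells and 10.91, 11.52 and 11.91 in Wntnegative cells. The Wnthigh arrays were below all Wntnegative arrays in both runs and below all Wntlow arrays in the later run. Zfp36 was lower in Wnthigh than in Wntnegative cells (difference −1.04, SE 0.196, limma adjusted p = 0.000382) and lower than in Wntlow cells (difference −0.60, SE 0.196, limma adjusted p = 0.0313). The difference from Wntlow cells did not pass when experiment 2, 7, 8 or 9 was left out, at −0.55, −0.51, −0.55 and −0.55.

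Dusp1 had 16.52, 17.002 and 16.88 in Wnthigh cells, 16.77, 17.21 and 17.12 in Wntlow cells and 17.28, 17.26 and 17.13 in Wntnegative cells of experiments 2 to 5. In experiments 7 to 9 it was at 14.77, 14.89 and 15.34 in Wnthigh cells, 16.31, 16.27 and 16.91 in Wntlow cells and 16.27, 16.49 and 17.08 in Wntnegative cells. The groups lay close together in the earlier run, and in the later run the Wnthigh arrays stood clear of all others. Dusp1 was lower in Wnthigh than in Wntnegative cells (difference −1.02, SE 0.235, limma adjusted p = 0.00207) and lower than in Wntlow cells (difference −0.87, SE 0.235, limma adjusted p = 0.00987). These sizes rest on the deposited scale more than those of the other genes: after quantile normalization over all 18 arrays they were −0.61 (adjusted p = 0.0180) and −0.27 (adjusted p = 0.390). The adjusted p over all settings tried ran from 0.000987 to 0.125 for the first comparison and from 0.00488 to 0.405 for the second.

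Between Wnthigh and Wntnegative cells, the 8 genes that passed were also the 8 whose arrays did not overlap in either run, and 17.8% of all genes were lower with no overlap in either run. The difference was negative for 9 of the 9 genes, beside 64.2% of all genes, and 8 were lower in 5 of 5 paired experiments. The count was 3 of 9 in experiments 2 to 5 alone (Jun, Atf3 and Btg2), where 17.7% of all genes were lower, 3 of 9 without the run as a term (Jun, Fosb and Btg2), beside 4.48% of all genes, and 8 of 9 with any 1 experiment left out, beside 21.3 to 23.7%.

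Between Wnthigh and Wntlow cells 16.4% of all genes were lower and 11.4% higher, and 7 of 9 of the genes described here were lower, all but Atf3 and Egr1. With only genes brighter than the median gene tested, 8 of 9 passed and 4935 genes were lower, beside 4951 over all genes. The 4935 come from far fewer genes tested, so they are a larger share than 16.4%. Paired by experiment, all of the 9 but Egr1 were lower in Wnthigh than in Wntlow cells in 5 of 5 experiments, and Egr1 in 3 of 5. The earlier run held such pairs in experiments 4 and 5, where Fosb differed by −0.89 and −1.22 and Jun by −0.49 and −0.88. The calls past the threshold rested on the later run. In experiments 2 to 5 none of the 9 had Wnthigh arrays below all Wntlow arrays, beside 15% of all genes, and none passed in that run alone, beside 6.11% of all genes lower. The Wnthigh arrays of 8 lay below all Wntlow arrays in experiments 7 to 9, beside 19% of all genes. In both runs at once this held for 0 of the 9 and for 10.3% of all genes. Without experiment 7, or without experiment 8, 3 of 9 passed (14.1% and 13.8% of all genes lower), and without the run as a term none of the 9 did (2.09%). The Wntlow array of experiment 3 had the lowest value of its group in the earlier run for all 9 genes, and without it 8 of 9 passed (17.4% of all genes lower).

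Between Wntlow and Wntnegative cells 13.2% of all genes were lower and 12.3% higher by limma, and 0 of 9 passed. At an unadjusted p under 0.05, 3 of 9 were lower (Atf3, Btg2 and Zfp36), beside 5906 of 30142 genes. The median of the 9 differences was −0.42, beside −0.03 for all genes. In experiments 2 to 5 the Wntlow arrays of Fosb, Atf3 and Btg2 lay below all Wntnegative arrays, 3 of 9 beside 15.6% of all genes. Those of none of the 9 did in experiments 7 to 9, beside 13% of all genes, and in both runs at once it was 6.57% of all genes. The Wntnegative array of experiment 7 had lower values than the Wntlow array of that experiment for 9 of 9 genes, by 0.04 for Dusp1 to 1.23 for Fosb. The means were in the order Wnthigh, Wntlow, Wntnegative from low to high for 8 of 9 genes in the earlier run (not Egr1) and 7 of 9 in the later one (not Egr1 and Ier2).

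**Figure D3:**
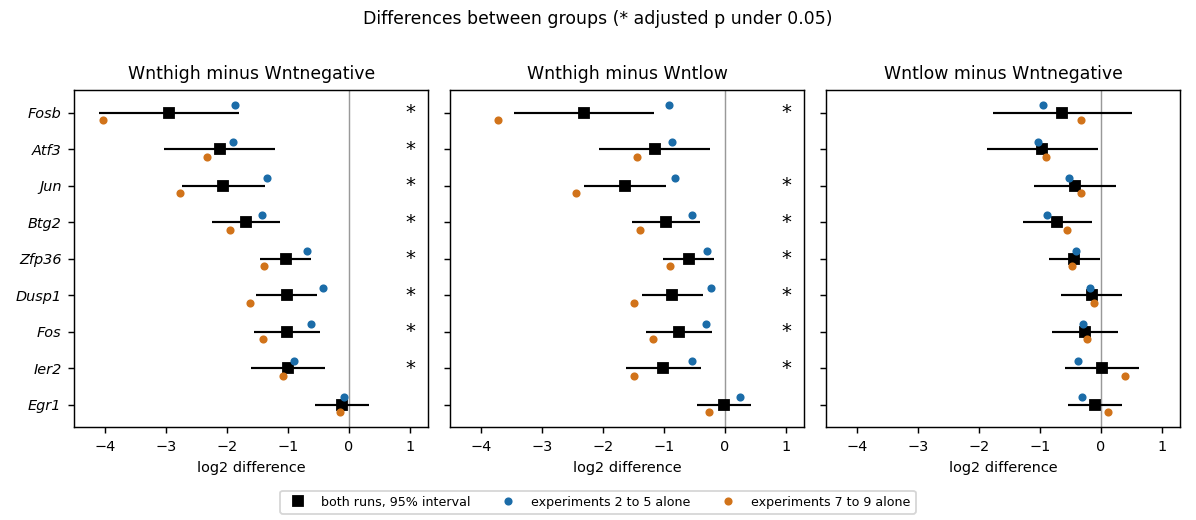
Log2 differences of 9 genes for Wnthigh minus Wntnegative, Wnthigh minus Wntlow and Wntlow minus Wntnegative cells. Squares are estimates over both runs with 95% intervals, blue and orange points are the differences in experiments 2 to 5 and 7 to 9, and stars mark a limma adjusted p under 0.05. The stars number 8, 7 and 0, and Egr1 lies near 0 in all 3 comparisons.

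The 2 runs gave differences of unlike size. Between Wnthigh and Wntnegative cells Fosb differed by −1.86 (earlier run) and −4.03 (later run), Jun by −1.35 and −2.76 and Dusp1 by −0.42 and −1.61, whereas Ier2 differed by −0.91 and −1.08. By limma, 0 of 30142 genes passed the test of the difference between runs in any of the 3 comparisons. At an unadjusted p under 0.05 that difference was found for Jun, Fosb and Dusp1, 3 of 9, in both comparisons of Wnthigh cells, beside 1940 genes against Wntnegative and 2183 against Wntlow cells. The runs also differed in level, by a median of −1.14 over all genes, later minus earlier, and by −0.70 (Btg2) to −3.48 (Atf3) among the 9 genes.

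The 9 genes moved together across arrays. After the mean of each run was taken off, the 36 pairs of genes had Pearson correlations of 0.242 to 0.967 over 18 arrays, with a median of 0.819, and the highest was that of Jun with Fosb. After the mean of each group in each run was taken off as well, the pairs had 0.137 to 0.901 with a median of 0.628, so arrays of 1 group also shared high and low values. Zfp36 with Fosb was the highest of these, at 0.901, and Egr1 had its highest with Ier2, at 0.735. With only the mean of each run taken off, Fosb followed the mean of the other 8 most closely, at 0.972, and Egr1 least, at 0.427. With the mean of each group in each run taken off, Zfp36 followed it most closely, at 0.926, and Ier2 least, at 0.449. Egr1 was then at 0.620. These values are a description: the genes share arrays, pools of cells and the normalization.

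**Figure D4:**
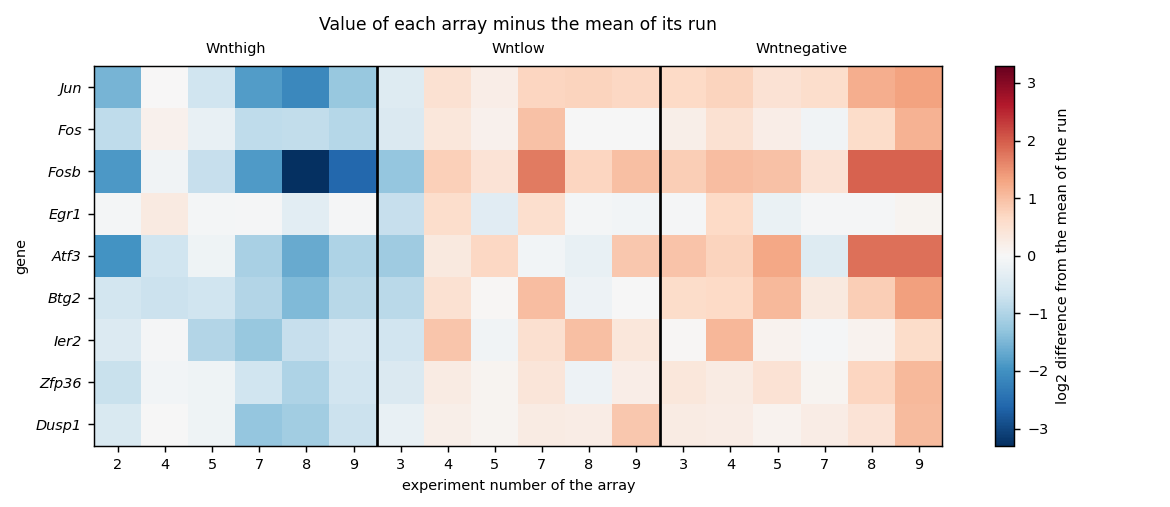
Value of each of 9 genes on each of 18 arrays minus the mean of the gene over its run, in log2 units, with Wnthigh, Wntlow and Wntnegative arrays from left to right and the experiment number below. Blue is below and red above the mean of the run. The Wnthigh columns are mostly blue except for Egr1 and palest in experiment 4, and the Wntlow column of experiment 3 is blue as well.

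Outside the pathway lists, the 6 protein coding genes whose run-centred values were most like the mean of the 9 over 18 arrays were Nrbp2 (r = 0.961), Elmo3 (0.949), Clk4 (0.948), Pi4ka (0.948), Svil (0.942) and Mbnl1 (0.942). Their differences of Wnthigh from Wntnegative cells, −1.05 (Nrbp2) to −2.02 (Svil), have a direction that this choice fixes. Clk4 phosphorylates splicing factors, Mbnl1 regulates splicing, Pi4ka makes a membrane phosphoinositide, and Svil encodes supervillin, which binds actin.

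The groups differed in their cell types, and in sorted bulk RNA fewer cells of a type and less RNA per cell cannot be told apart. All 9 measured ciliated cell markers were higher in Wnthigh cells, with means over the list of 14.22 to 14.90 in Wnthigh, 9.47 to 13.82 in Wntlow and 4.97 to 7.90 in Wntnegative arrays of both runs. Alveolar type II markers ran the other way, with list means of 11.87 to 16.31 in Wnthigh, 14.99 to 17.34 in Wntlow and 17.51 to 18.47 in Wntnegative arrays, and 9 of 10 lower in Wnthigh than in Wntnegative cells. Club cell markers were higher in Wnthigh than in Wntnegative cells for 7 of 7 genes, and goblet cell markers for 6 of 8. Goblet cell markers were higher in Wntlow than in Wntnegative cells for 8 of 8, where none of the immediate early genes passed. Alveolar type I markers were lower in Wnthigh than in Wntnegative cells for 8 of 9.

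Array by array, the immediate early genes and the cell type markers moved in part together. In the earlier run the Wnthigh array of experiment 4 had the highest type II marker mean of its group, 16.31. The means were 12.49 in experiment 2 and 14.61 in experiment 5. Jun, Fos, Fosb, Egr1, Zfp36 and Dusp1 were highest in experiment 4 and lowest in experiment 2. The others differed: Atf3 was highest in experiment 5, Ier2 was lowest in experiment 5 and Btg2 was lowest in experiment 4. Among the Wntlow arrays of that run, experiment 3 had the highest ciliated marker mean, 13.82 beside 10.21 and 12.69, and the lowest values of all 9 genes. The Wnthigh arrays of the later run had type II means of 11.87, 13.87 and 15.18. Ier2 and Dusp1 rose in that order there. The other genes had another order, such as Fosb with 12.33, 10.91 and 11.63. The part of cell type in these differences was not tested.

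Markers of cells that the sort should remove were at different levels. Pecam1 and Cdh5 of endothelial cells, Ptprc of blood cells and Col1a1 of fibroblasts had means below the background level of their run, 5.20 or 4.96, in all 3 groups. Of 8 immune markers 3 were lower in Wnthigh than in Wntnegative cells (Cd68, Lyz1 and Cd79a), of which Cd79a was at background and did not pass with the experiment as a replicate block (adjusted p = 0.0514). The immune list had means of 4.56 to 6.21 in Wnthigh, 5.03 to 6.53 in Wntlow and 5.80 to 6.68 in Wntnegative arrays, where every array was above the background level of its run. Of 6 endothelial markers Kdr was the only one called, higher in Wnthigh (at least 1.92) and in Wntlow cells (at least 6.01) than in Wntnegative cells, where it was at background. No marker of the 6 for fibroblasts and smooth muscle was called between Wnthigh and Wntnegative cells. Of these 6, 1 was higher in Wntlow than in Wntnegative cells and 1 lower in Wnthigh than in Wntlow cells. The part of these cells was not tested.

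The genes around the set were counted in 7 lists, whose counts stand beside the shares of all genes given above. Among 12 other AP-1 family members and partners, 6 were lower and none higher in Wnthigh than in Wntnegative cells, with a median of −0.33. Batf (−0.91, a lower limit in size since its Wnthigh values of the later run were at background, limma adjusted p = 3.68e-05), Mafk (−0.90, 1.14e-05) and Atf4 (−0.83, 8.90e-05), basic leucine zipper proteins that pair with Fos or Jun relatives, were the furthest. Jund, the steadily expressed relative of Jun, was lower (difference −0.75, limma adjusted p = 0.00476), with 5.80 ± 0.53 in Wnthigh and 6.69 ± 0.12 in Wntnegative cells of the earlier run (SD, n = 3 each) and values at background in the later run. Fosl1 was at background in all groups (−0.18, limma adjusted p = 0.0539). Fosl2 differed by −0.18 between Wnthigh and Wntnegative cells (limma adjusted p = 0.400) and was lower in Wnthigh than in Wntlow cells (difference −0.48, limma adjusted p = 0.0320), a call lost with the experiment as a replicate block (adjusted p = 0.0682).

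In that list 4 of 12 were lower and 1 higher in Wntlow than in Wntnegative cells, the furthest by estimate being Batf (−0.92, a lower limit in size), Jund (−0.56, with both groups at background in the later run) and Atf2 (−0.38), with Jdp2, a repressor of AP-1, higher (0.38). The call of Mafk there (−0.34) was lost with the replicate block (adjusted p = 0.0625). Between Wnthigh and Wntlow cells 5 of 12 were lower, led by Atf4 (−0.96), Mafk (−0.57) and Jdp2 (−0.52, a lower limit in size).

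The EGR and NR4A factors did not move as 1 group: 2 of 8 were lower and 2 higher in Wnthigh than in Wntnegative cells, close to the shares of all genes. Nr4a1, an orphan nuclear receptor induced in the same early wave, was at 11.41 ± 0.77 in Wnthigh, 11.56 ± 1.54 in Wntlow and 12.70 ± 0.57 in Wntnegative cells of experiments 2 to 5, and at 6.64 ± 0.79, 7.88 ± 0.17 and 9.47 ± 0.50 in the same order in experiments 7 to 9 (SD, n = 3 each). It was lower in Wnthigh cells (difference −2.06, limma adjusted p = 0.00189) and in Wntlow cells (difference −1.37, limma adjusted p = 0.0420), both against Wntnegative cells. Its relative Nr4a2 went the other way, higher by 0.86 in Wnthigh (limma adjusted p = 0.00334) and by 1.64 in Wntlow cells (limma adjusted p = 4.10e-05) than in Wntnegative cells. Nr4a3 was lower (difference −0.41, limma adjusted p = 0.0129) and close to background, and Nab2, which holds EGR factors in check, was higher by 0.17 (limma adjusted p = 0.0190). The Nab2 call was lost with the experiment as a replicate block (adjusted p = 0.0819), and it rests on the earlier run (0.35), since all Wnthigh and Wntnegative arrays of the later run have 1 value, 6.93. Egr2 (−0.0003, limma adjusted p = 0.999) and Egr3 (0.25, limma adjusted p = 0.0851) did not pass and were at background in the later run.

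The widest list, 27 other early response genes, had 19 lower and 2 higher in Wnthigh than in Wntnegative cells, with a median of −0.63. Plk2, a kinase of the early response, was lower (difference −4.29, limma adjusted p = 2.54e-06), with means of 8.61 in Wnthigh, 12.30 in Wntlow and 12.34 in Wntnegative cells of the earlier run. Errfi1, an inhibitor of the EGF receptor, was lower (difference −3.49, limma adjusted p = 5.51e-06), and Cebpd, a basic leucine zipper factor of inflammation, by at least 3.20 in size (limma adjusted p = 7.18e-07), since its Wnthigh values of the later run were at background. Ier5 (1.25, limma adjusted p = 1.25e-08) and Klf10 (0.95, limma adjusted p = 6.93e-08) were higher, with Wntnegative values at background in the later run.

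The same list had 13 lower and 2 higher of 27 in Wnthigh than in Wntlow cells, with Plk2 (−4.27), Gadd45b (−2.90) and Gadd45g (−2.38) furthest down and Klf10 (0.56) and Ier5 (0.48, a lower limit) up. In Wntlow against Wntnegative cells 5 were lower and 4 higher. There Errfi1 (−1.66), Nfkbiz (−1.57) and Cebpd (−0.97) were furthest down and Ier5 (0.77), Sgk1 (0.66) and Klf10 (0.40) furthest up by estimate, all 3 with Wntnegative values at background in the later run.

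DUSP and Sprouty proteins are feedback inhibitors of MAP kinase signalling. Of 12 such genes, 8 were lower and 1 higher in Wnthigh than in Wntnegative cells and 7 lower and 1 higher in Wntlow than in Wntnegative cells, with medians of −1.22 and −0.87. Spry2, an inhibitor of receptor kinase signalling, was lower in Wnthigh (difference −3.00, limma adjusted p = 6.06e-07) and in Wntlow cells (difference −1.58, limma adjusted p = 0.00103). Dusp16, a phosphatase for JNK, was lower in Wnthigh (difference −2.67, limma adjusted p = 7.93e-08) and in Wntlow cells (difference −1.28, limma adjusted p = 0.000478). Dusp4 was lower in Wnthigh cells (difference −2.12, a lower limit in size, limma adjusted p = 1.50e-06) and in Wntlow cells (difference −1.17). Dusp7 was lower in Wntlow cells (difference −1.18).

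Dusp6, the ERK phosphatase most often used as a readout of that pathway, was lower in Wnthigh (difference −1.29, limma adjusted p = 0.000425) and in Wntlow cells (difference −0.999, limma adjusted p = 0.00656). Dusp14 was higher by 2.38 in Wnthigh (limma adjusted p = 3.41e-08) and by 0.995 in Wntlow cells. Against Wntlow cells 5 of the 12 were lower in Wnthigh cells, with Spry2 (−1.42), Dusp16 (−1.39) and Spry1 (−1.02) furthest down, and 2 were higher, Dusp14 (1.38) and Dusp10 (0.41, a lower limit).

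Among 6 relatives of Zfp36 and Btg2, 4 were lower and 1 higher in Wnthigh than in Wntnegative cells. Btg1 was lower (difference −1.57, limma adjusted p = 0.000104) and so was Zfp36l2 (difference −0.58, limma adjusted p = 3.68e-05). Btg3 was lower (difference −3.33, limma adjusted p = 5.20e-07), an uncertain value, because another probe set carries the symbols of both Btg3 and Gm7334. Tob1 was higher by 0.72 (limma adjusted p = 1.36e-06). Zfp36l1 differed from its paralog Zfp36 in its order: it was at 13.34 ± 0.11 in Wnthigh, 15.18 ± 0.49 in Wntlow and 13.90 ± 0.26 in Wntnegative cells of experiments 7 to 9 (SD, n = 3 each). It was higher in Wntlow than in Wntnegative cells by 0.78 (limma adjusted p = 0.0295, and 0.0615 with the experiment as a replicate block), and its difference between Wnthigh and Wntnegative cells was −0.27 (limma adjusted p = 0.415).

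Of these 6 relatives, 2 were lower and 1 higher in Wntlow than in Wntnegative cells, namely Btg3 (−1.85), Zfp36l2 (−0.41) and, higher, Zfp36l1. In Wnthigh against Wntlow cells 4 were lower and 1 higher. Btg3 (−1.48), Zfp36l1 (−1.05) and Btg1 (−0.86) were furthest down there, and Tob1 was up by 0.51.

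The kinases and factors that act on immediate early promoters were also lower in part, 9 of 14 in Wnthigh and 10 of 14 in Wntlow than in Wntnegative cells, with 2 and 1 higher. Elk3, a ternary complex factor that binds with SRF, was lower in Wnthigh (difference −2.67, a lower limit in size, limma adjusted p = 1.16e-07) and in Wntlow cells (difference −1.63). Rps6ka3, which encodes the ERK-activated kinase RSK2, was lower in Wnthigh (difference −1.90, limma adjusted p = 9.78e-09) and in Wntlow cells (difference −0.86). Mapkapk2, the p38-activated kinase that phosphorylates tristetraprolin, was lower in Wnthigh (difference −1.71, limma adjusted p = 4.87e-07) and in Wntlow cells (difference −0.999). Mrtfb was higher by 0.49 in Wnthigh (limma adjusted p = 0.0181) and by 0.56 in Wntlow cells. Srf itself was higher in Wnthigh than in Wntnegative cells by 0.25 (limma adjusted p = 0.0495), and did not pass with the experiment as a replicate block (adjusted p = 0.114). In Wnthigh against Wntlow cells 5 of the 14 were lower, with Elk3 (−1.05, a lower limit in size), Rps6ka3 (−1.04) and Mapkapk2 (−0.71) furthest down.

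Heat shock genes are also known to be raised by tissue dissociation. Of 11 measured, 6 were higher and 1 lower in Wnthigh than in Wntnegative cells, with a median of 0.44, and 5 were higher and 1 lower in Wntlow than in Wntnegative cells. Hsph1, a chaperone of the HSP110 family, was at 15.89 ± 0.43 in Wnthigh, 14.29 ± 1.45 in Wntlow and 11.29 ± 0.31 in Wntnegative cells of experiments 2 to 5 (SD, n = 3 each), and higher in Wnthigh than in Wntnegative cells by 5.85 over both runs (limma adjusted p = 1.59e-07). Hspa1a, the stress-inducible HSP70 gene, was higher by 1.11 (limma adjusted p = 0.00382), a value that its near-identical copy Hspa1b may share, and Hsp90aa1 by 0.90 (limma adjusted p = 1.20e-06). Hspb8 was lower (difference −3.57, limma adjusted p = 2.97e-06), with the difference a lower limit in size.

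Hsph1 (3.41), Hspe1 (0.62) and Hspb1 (0.48) were furthest up in Wntlow against Wntnegative cells, and Hspb8 was down (−2.02). Against Wntlow cells 3 of 11 heat shock genes were higher in Wnthigh cells, Hsph1 (2.44), Dnajb1 (0.50) and Hsp90aa1 (0.48), and 2 were lower, Hspb8 (−1.55, a lower limit in size) and Hspb1 (−0.60).

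**Figure D5:**
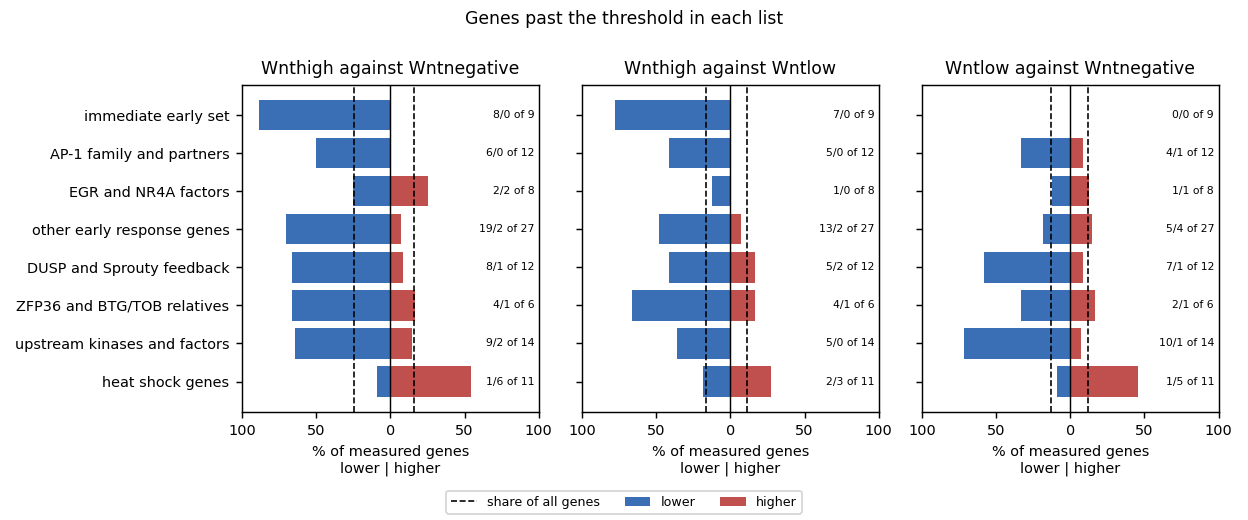
Percent of the measured genes of each list that were lower (blue, to the left) or higher (red, to the right) by a limma adjusted p under 0.05 in 3 comparisons, with the numbers lower and higher beside each bar. Dashed lines give the share of all 30142 genes, 24.6% lower and 15.7% higher in Wnthigh against Wntnegative cells. These shares include dim genes and are smaller than those among genes brighter than the median gene. Among the lists drawn, the immediate early set has the largest share lower in both comparisons of Wnthigh cells, 8 and 7 of 9.

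Set beside the promoter windows, the differences were as follows. Btg2 and Dusp1, which share the CRE, differed by −1.68 and −1.02 between Wnthigh and Wntnegative cells. Fos, with 2 cores, differed by −1.01. Fosb and Atf3, with 1 core each, differed by −2.95 and −2.12, and Zfp36, with the CArG box and no core, by −1.04. Jun, at −2.06, held none of the motifs searched.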

How the data were processed

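The authors deposited log2 values for 72688 probe sets and 18 arrays, computed with RMA, per the submitters' processing notes. Neither the chip library nor the build is given in the sources used here, and the number of arrays limits the precision. Leaving out controls, 30604 of 65956 probe sets had 1 platform symbol, 2146 several and 33206 none, with 827 symbols updated. The probe set with the highest mean stood for each of 30142 genes, with no filter on dim ones.

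The run was read from the decimals of the values, 5 or 6. Differences were tested two-sided with limma 3.58.1 in R 4.3.3 (lmFit and eBayes, group and run as terms, all 18 arrays). Replicates are pools of animals from separate experiments. A group mean below the 95th percentile of 23 background probe sets of its run, or within 1 log2 unit of the highest value, makes a difference a lower limit in size.

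The labels give arrays of different groups the number of a shared experiment, which pairs them. Same-numbered arrays deviated together from their group means in all 16 pairs (r across genes 0.486 to 0.802), but the difference between runs enters these values. After group and run means were taken off, r was above 0.1 in 8 of 16 (−0.147 to 0.410). With the mean of each group in each run taken off, it was above 0.1 in 12 of 16 (0.003 to 0.516). Arrays with different numbers were not compared in this way. The experiment as a fixed or random replicate block, each run alone, no run term, array centring, quantile normalization, a filter on dim genes, an average over a gene's probe sets, a trended robust prior, fits of only 2 groups, a minimum difference of 1 and leaving out each experiment were the alternatives. The omission of 1 Wntlow array was added after seeing the data.

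The genes and lists were chosen with earlier results of these data known. Named genes are all members and their closest relatives, up to 3 genes furthest in each direction of each list past the threshold, and the 6 most alike. Other genes, including markers singled out, were chosen after their values were seen. Proteins were not used here.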

Additional observations from a re-analysis of the deposited data

Results flagged for a closer look

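With the mean of its run taken off, 2 of 27 sets of 6 arrays (9 genes in 3 groups) held an array far from the other 5 of its group, at a rate that chance alone gives in about 1 of 20 sets. Egr1 in the Wntnegative array of experiment 4 was 0.646 log2 units above the mean of its run. Dusp1 in the Wntnegative array of experiment 9 was 1.04 log2 units above the mean of its run.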

How the results depend on the processing

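With the experiment as a fixed replicate block, 11573 genes passed between Wnthigh and Wntnegative cells (12142 in the reported fit), 8002 between Wntlow and Wntnegative (7697) and 8139 between Wnthigh and Wntlow cells (8402), and 8, 0 and 6 of the 9 genes did. The block changed no other call of the 9 than that of Fos between Wnthigh and Wntlow cells. Without the run as a term 2824, 1061 and 1351 genes passed, and 3, 0 and 0 of the 9, in the same order. In experiments 2 to 5 alone, 8999 genes passed between Wnthigh and Wntnegative, 2532 between Wntlow and Wntnegative and 3291 between Wnthigh and Wntlow cells, with 3 of the 9 between Wnthigh and Wntnegative and 0 between Wnthigh and Wntlow cells. In experiments 7 to 9 alone, 7906 genes passed between Wnthigh and Wntnegative and 4471 between Wntlow and Wntnegative cells. With a difference of at least 1 in size, 4188, 2305 and 2742 genes passed, and 3 of the 9 between Wnthigh and Wntlow cells. Quantile normalization gave 4 of the 9 there, beside 4387 genes lower among all. Between Wntlow and Wntnegative cells it gave 1 (Btg2), beside 5259 genes lower. The random replicate block (1, beside 4219 genes lower) and the filter on dim genes (1, beside 3462 of the brighter genes lower) did likewise. With 1 experiment left out, 0 to 1 of the 9 passed between Wntlow and Wntnegative cells (1 without experiment 7), beside 2940 to 3930 genes lower. Between Wnthigh and Wntlow cells 3 to 8 passed (3 without experiment 7 or 8), beside 4158 to 5122 genes lower. Fewer arrays entered each run alone. For the other settings the cause was not tested. No difference of a called gene changed sign in any setting tried. Counted over genes and settings, 10 values between Wnthigh and Wntnegative and 35 between Wnthigh and Wntlow cells lost the call and 4 in each of the comparisons with Wntlow cells gained it. Values near background limit Egr1 in the later run.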

Other observations

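Markers of rarer epithelial and blood cells were measured as well. None of 4 basal cell markers and none of the 1 measured erythroid marker passed the limma test between Wnthigh and Wntnegative cells. Of 4 measured neuroendocrine markers, Resp18 was higher in Wnthigh (at least 2.43) and in Wntlow cells (at least 2.38) than in Wntnegative cells, where it was at background.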
